A study of Mus musculus with 3 samples.

Results

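The 6 genes described here, Clec4d, Clec4e, Clec4n, Clec5a, Clec7a and Clec10a, encode C-type lectin receptors of the macrophage surface. They were listed by mouse symbol, and all 6 were found among the 54331 features of the table by their Ensembl identifiers. Their values were read in 3 RNA libraries from RAW 264.7 cells, an established macrophage line from a virus-induced mouse tumour, which the labels give as male and of BALB/c background. The line's name is taken from the labels' protocols, since their source field spells it differently. All cells had been given lipopolysaccharide (LPS, a bacterial ligand of the receptor TLR4) at 100 ng/mL for 5 h, and no library without LPS was analysed here. A control shRNA was present in 1 library, labelled wild-type, and the other 2, labelled GIV-depleted, came from cells with a first or a second shRNA against GIV (Girdin, encoded by Ccdc88a). These 2 are called the sh1-labelled and the sh2-labelled library after their titles. The series title names the dampening of TLR4 signalling by GIV as its subject. The design text calls the 2 shRNAs biological replicates, and nothing in the labels says that the cultures were grown or treated separately.

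C-type lectin receptors bind sugars and lipids of fungi, mycobacteria, viruses and damaged cells. Activating members signal through an immunoreceptor tyrosine-based motif, held in their own tail or in a partner chain such as the Fc receptor gamma chain (Fcer1g) or DAP12 (Tyrobp), which recruits the kinase Syk and, through the adaptor Card9 with Bcl10 and Malt1, NF-kB. In macrophages several of these genes are known to be induced by Toll-like receptor ligands, Clec4e (Mincle) above all.

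On chromosome 6 (GRCm38), Clec4n (positions 123229843 to 123247021), Clec4d (123262111 to 123275265) and Clec4e (123281789 to 123289870, on the opposite strand) are consecutive members of the Dectin-2 gene cluster. Gaps of 15.1 kb and 6.5 kb separate them. Clec7a (129461591 to 129472779) lies 6.17 Mb further along, in the Dectin-1 cluster, and Clec5a (40574894 to 40585821) lies 82.6 Mb before Clec4n. Clec10a is on chromosome 11 (70156197 to 70170834). GENCODE M21 classes 5 of these genes as protein coding and Clec7a as a polymorphic pseudogene, although it lists protein-coding transcripts of Clec7a.

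The 250 bases before the RefSeq transcription start (GRCm38.p6) are shown for the 3 most abundant receptors, since their values in the sh1-labelled library lay below, close to and above the control, in that order. Each runs 5′ to 3′ on the gene's own strand. Capitals mark matches on either strand to GAGGAA, the core of the PU box bound by the macrophage factor PU.1, or to TTNNGCAA, a form of the C/EBP consensus. Clec4d is at chr6:123261857-123262106 (plus strand), Clec4e at chr6:123289872-123290121 (minus strand) and Clec5a at chr6:40585806-40586055 (minus strand).
Clec4d: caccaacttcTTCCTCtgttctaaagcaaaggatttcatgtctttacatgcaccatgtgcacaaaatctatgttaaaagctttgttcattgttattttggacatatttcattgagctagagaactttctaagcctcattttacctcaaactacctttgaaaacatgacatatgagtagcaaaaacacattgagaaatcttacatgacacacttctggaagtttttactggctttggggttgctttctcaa
Clec4e: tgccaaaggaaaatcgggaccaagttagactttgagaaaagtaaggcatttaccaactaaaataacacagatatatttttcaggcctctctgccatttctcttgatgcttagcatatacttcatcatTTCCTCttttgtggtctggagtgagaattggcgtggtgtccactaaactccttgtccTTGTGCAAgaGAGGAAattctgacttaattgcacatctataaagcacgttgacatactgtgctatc
Clec5a: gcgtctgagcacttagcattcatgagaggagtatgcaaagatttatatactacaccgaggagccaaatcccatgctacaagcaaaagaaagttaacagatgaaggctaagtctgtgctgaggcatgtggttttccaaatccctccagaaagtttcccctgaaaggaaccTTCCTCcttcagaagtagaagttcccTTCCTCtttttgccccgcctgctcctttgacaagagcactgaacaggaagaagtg

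A promoter window was found for 4 of the 6 receptors, Clec7a being the fourth. All 4 held the PU box letters, which 23.3% of 32851 windows of this length hold. The match in Clec4d began 240 bases before the start and that in Clec7a 96 bases before it. Clec5a had matches at 81 and 55 bases, and Clec4e at 123 and 56. The C/EBP letters were found in Clec4e, beginning 66 bases before the start and not overlapping the PU box matches, against 9.56% of all windows. Neither TGANTCA (AP-1, in 6.75% of windows) nor the NF-kB consensus (in 7.25%) was found in the 4 windows. A match is a string of letters and does not show that a factor binds there.

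Library totals lay between 47349097 and 49756670 normalized counts, and the commonest lowest value, about the worth of 1 read, from 0.931 to 1.11. Ccdc88a, the gene targeted, had 2580 normalized counts with the control shRNA, 1734 in the sh1-labelled library and 2561 in the sh2-labelled library. The sh2-labelled library therefore goes against its label at the level of mRNA, and every direction given below for both GIV shRNA libraries rests in part on it. In the sh1-labelled library Ccdc88a was 1.49-fold below the control, and 17.3% of all tested features lay at least as far from the control. The share of transcripts encoded by mitochondria was 1.43% in the control and 0.995% and 1.14% in the sh1-labelled and sh2-labelled libraries. Of the macrophage markers checked, all 7 were above the filter on low values, and their summed value was 319291, 208055 and 241609 in the order control, sh1-labelled, sh2-labelled. Lyz2 (199781, 121997 and 138145) made up most of that sum. Lower values in both GIV shRNA libraries were found for 5 of the 7, against 35.2% of all features. Itgam (19994, 18123 and 24136) and Adgre1 (7150, 6272 and 7912) were lower in the sh1-labelled and higher in the sh2-labelled library. The lymphocyte gene Cd3e, the neutrophil gene Ly6g and the dendritic-cell genes Flt3, Siglech and Cd209a were at 0 in every library. Itgax (725, 970 and 764), Xcr1 (383, 278 and 320) and Zbtb46 (14.7, 17.5 and 34.9) of the 8 dendritic-cell markers passed the filter. So did S100a8 (68.8, 45.6 and 75.5) and Cxcr2 (30.9, 28.9 and 38.5) of the neutrophil markers. Of the lymphocyte markers, Ms4a1 (6.56, 8.87 and 20.2) passed it. Summed values of the dendritic-cell markers were 1129, 1285 and 1122, and of the neutrophil markers 101, 74.5 and 117. Those of the lymphocyte markers were 8.42, 9.99 and 27.9, of the fibroblast markers 5.61, 3.34 and 3.85, and of the mast cell and basophil markers 2.42, 2.24 and 25.1. The last sum was almost wholly Kit (0.551, 1.13 and 24.2), with 3 of the 5 markers at 0 throughout. The part of these markers and of the mitochondrial share in the differences below was not tested.

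Levels of different genes were compared as normalized counts per kilobase of the longest annotated transcript. The order of the 6 receptors was the same in all 3 libraries, with Clec4d first, followed by Clec4e, Clec5a, Clec7a, Clec4n and Clec10a. The first place of Clec4d rests on the lengths used, 1323 bases for Clec4d and 4804 for Clec4e. In normalized counts not divided by length, Clec4e was above Clec4d in every library (13998 against 12033 in the control). Clec4d, also called MCL, forms heterodimers with Mincle and promotes its surface expression. Its level per kilobase was 9095 in the control, 5424 in the sh1-labelled library and 9030 in the sh2-labelled library, above 95.3% to 97.4% of the tested features. Clec4e, which recognises mycobacterial cord factor, stood at 2914, 2695 and 3380 per kilobase. Clec5a, or MDL-1, which pairs with DAP12 and has been described as a dengue virus receptor, stood at 1840, 2203 and 1410.

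The other 3 receptors were far lower. Clec7a, or Dectin-1, the beta-glucan receptor that carries its own signalling motif, had 190, 254 and 195 normalized counts per kilobase. Clec4n, or Dectin-2, which binds fungal mannans and signals through Fcer1g, had 62.7, 39.1 and 61.1. Clec10a, or MGL1, a galactose-type lectin often used as a marker of alternatively activated macrophages, had 23.4, 36.7 and 39.1. Clec4d alone made up 64.4% of the per-kilobase sum of the 6 receptors in the control, 50.9% in the sh1-labelled library and 64% in the sh2-labelled library. Over the 2 GIV shRNA libraries Clec4n had 50.1 ± 15.6 per kilobase and Clec10a 37.9 ± 1.66 (SD, n = 2). Clec4e and Clec5a had 3038 ± 484 and 1807 ± 560 there (SD, n = 2). Per kilobase, Clec4n lay above Clec10a, and Clec4e above Clec5a, in each of the 3 libraries. In normalized counts not divided by length, Clec10a was above Clec4n in both GIV shRNA libraries. Its values there were 85.7 against 54.9 (sh1-labelled) and 91.1 against 85.8 (sh2-labelled). In the control Clec4n was above Clec10a (88.1 against 54.5), so the order of these 2 rests in part on the lengths used. The SDs span 2 different shRNAs and leave out error in transcript length, so they give no test between genes. For the control, a single library, no such spread is known.

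**Figure D1:**
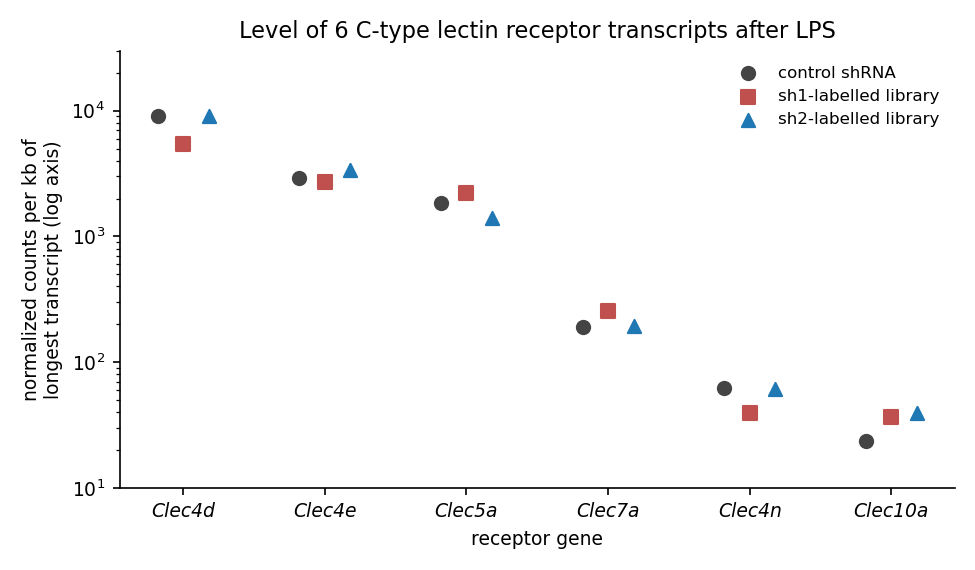
Normalized counts per kilobase of the longest transcript (log axis) for each receptor gene in the control library (circles), the sh1-labelled library (squares) and the sh2-labelled library (triangles), 1 point per library. Clec4d, Clec4e and Clec5a lie at 1410 or higher in every library, and Clec7a, Clec4n and Clec10a lie at 254 or lower.

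The comparison of the GIV shRNA libraries with the control asks how transcripts of macrophages exposed to LPS differ when an shRNA against GIV is present. In these bulk libraries, fewer cells that express a gene and less RNA per cell cannot be told apart. None of the 6 receptors passed an adjusted p of 0.05 in limma, and neither did any of the 13877 features tested (0%). At an unadjusted p under 0.05, limma passed 963 features (6.94%) and 0 of the 6 receptors. No receptor differed 2-fold from the control in a single library, whereas 6.92% of features did in the sh1-labelled library and 7.32% in the sh2-labelled library. Both comparisons share the 1 control library. With 1 residual degree of freedom between libraries the values per library carry the description. The SEs below are those of limma, which draws each gene's variance towards a trend over all tested features.

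In the Dectin-2 cluster, Clec4d and Clec4n had lower values in the sh1-labelled library than in the other 2, while Clec4e, the gene next to Clec4d, lay near the control. Clec4d had 12033 normalized counts with the control shRNA, 7177 in the sh1-labelled library and 11947 in the sh2-labelled library. The sh1-labelled library thus stood apart, 1.68-fold below the control, and the sh2-labelled library lay at the control's value. The log2 differences from the control were -0.75 and -0.01, and 11.6% of all tested features lay at least as far from the control in the sh1-labelled library. Over both libraries the log2 difference was -0.38 (SE 0.34; limma, adjusted p = 0.84).

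Clec4n, the least abundant transcript of the 3, had 88.1, 54.9 and 85.8 normalized counts in the same order. It was again lowest in the sh1-labelled library, 1.60-fold below the control, and close to the control in the sh2-labelled library. Its log2 differences were -0.67 and -0.04, and over both libraries -0.36 (SE 0.44; limma, adjusted p = 0.88). The level of Clec4d per kilobase over that of Clec4n was 145 in the control, 139 in the sh1-labelled library and 148 in the sh2-labelled library.

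Clec4e had 13998 normalized counts with the control shRNA, 12949 in the sh1-labelled library and 16240 in the sh2-labelled library, so that the control lay between the others. The log2 differences were -0.11 and 0.21, and over both libraries 0.05 (SE 0.19; limma, adjusted p = 0.96). That sign turned to -0.08 with a trend on GC content and transcript length removed. The level of Clec4e per kilobase relative to Clec4d was 0.32 in the control, 0.50 in the sh1-labelled library and 0.37 in the sh2-labelled library.

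On the other side of Clec4n lie the Clec4a and Clec4b genes, of which Clec4a1, Clec4a2 and Clec4a3 passed the filter of a mean of at least 10. Clec4a1 had 147 normalized counts with the control shRNA, 80.9 in the sh1-labelled library and 158 in the sh2-labelled library, and was lowest in the sh1-labelled library, as Clec4d was. Clec4a2, an inhibitory receptor known as DCIR, had 315, 260 and 360. Clec4a3 had 149, 148 and 274 and was apart from the control in the sh2-labelled library instead. In each of these 3 genes, as in Clec4d, Clec4e and Clec4n, the sh1-labelled library had the lowest value. For Clec4a3 it was nearly equal to the control (148 against 149), and for Clec4e the log2 difference was only -0.11. With the GC and length trend removed, Clec4a3 turned to 0.02 above the control on the log2 scale. The share of all features lowest in the sh1-labelled library was not counted, so this pattern has no background to be set against. Clec4a4 (1.87, 0 and 0.961) and Clec4b1 (0.936, 0 and 0.961) were near 1 read or none, and Clec4b2 was listed at 0 throughout. The Clec4a genes are close copies, so the split of reads among them is uncertain and they may not be separate observations.

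**Figure D2:**
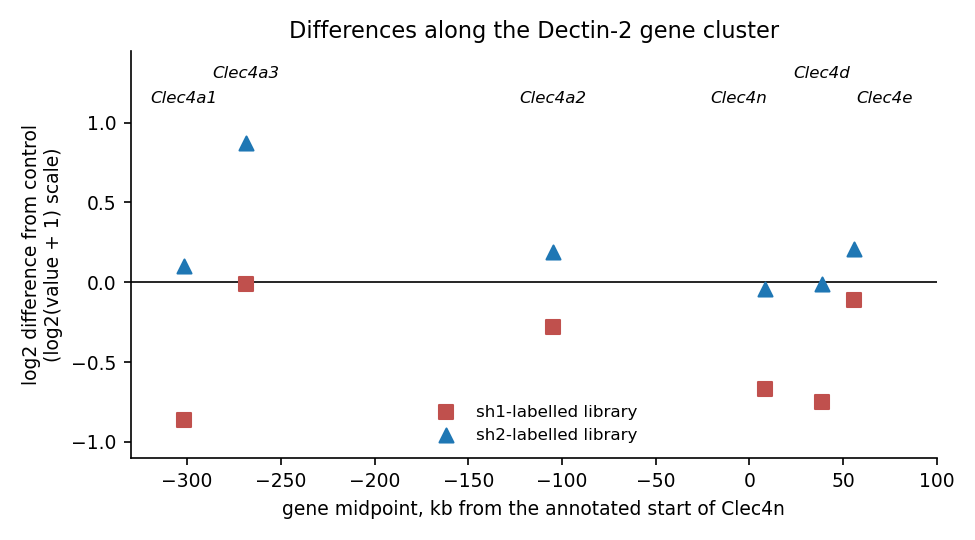
Log2 difference from the control (log2(value + 1) scale) of the 6 Dectin-2 cluster genes that passed the filter, against the distance of the gene's midpoint from the annotated start of Clec4n in kb, with squares for the sh1-labelled library and triangles for the sh2-labelled library (1 library each, no error). Clec4n and Clec4d lie at -0.67 and -0.75 in the sh1-labelled library, while Clec4e, at 56.0 kb, lies at -0.11.

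Clec5a, like Clec4e, had values on opposite sides of the control, but with the 2 GIV shRNA libraries in the reverse order. It had 6896 normalized counts with the control shRNA, 8254 in the sh1-labelled library and 5285 in the sh2-labelled library. The sh1-labelled library was highest and the sh2-labelled library lowest, with a ratio of 1.56 between them. The log2 differences from the control were 0.26 and -0.38, which gave -0.06 (SE 0.30) over both libraries and an adjusted p of 0.97 in limma. Its partner Tyrobp had 13194, 11322 and 12314 normalized counts, and Hcst, which encodes the other partner chain DAP10, had 102, 111 and 106.

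Clec7a had 433 normalized counts with the control shRNA, 579 in the sh1-labelled library and 444 in the sh2-labelled library. The sh1-labelled library was the high one, by 1.34-fold over the control, and the other 2 were nearly equal. The log2 differences were 0.42 and 0.03, and over both libraries 0.23 (SE 0.26; limma, adjusted p = 0.87). The difference of 0.03 became -0.03 under quantile normalization.

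Clec10a was the receptor with the largest mean difference of the 6, and the 1 receptor with values at least 1.5-fold higher than the control in both libraries. It had 54.5 normalized counts with the control shRNA, 85.7 in the sh1-labelled library and 91.1 in the sh2-labelled library. Both GIV shRNA libraries lay above the control, at 1.57 and 1.67 times its value, and they differed from each other by less, with a mean of 88.4 ± 3.88 normalized counts (SD, n = 2). The log2 differences were 0.64 and 0.73, and over both libraries 0.69 (SE 0.34; limma, adjusted p = 0.75). Of all tested features, 14.5% lay at least as far from the control in the sh1-labelled library and 12.3% in the sh2-labelled library. At least 1.5-fold higher in both were 5.09% of features. Between the 2 GIV shRNA libraries, 75% of features differed at least as much as Clec10a. These values stand for fewer than about 100 reads each, so counting error weighs more here than for Clec4d, Clec4e or Clec5a. Mgl2, a close relative of Clec10a, was near 1 read or none, with 1.86, 1.11 and 0 normalized counts.

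The counts of receptors past a fold were set beside those of all features. At least 1.5-fold lower in the sh1-labelled library were 2 of the 6 receptors, Clec4d and Clec4n, against 7.85% of features, and at least 1.5-fold higher was Clec10a, against 8.83%. In the sh2-labelled library no receptor was 1.5-fold lower, against 7.19% of features, and Clec10a was 1.5-fold higher, against 9.99%. In both libraries by this rule, 1 receptor was higher and 0 were lower, against 5.09% and 2.82% of features. By sign alone 2 receptors were higher in both (Clec7a and Clec10a) and 2 lower in both (Clec4d and Clec4n), against 34.9% and 35.2% of features, shares near those of the receptors. With library totals or upper quartiles made equal, no receptor was lower in both. Between the 2 GIV shRNA libraries 3 receptors (Clec4d, Clec4n and Clec5a) differed at least 1.5-fold, against 15.5% of features, with no test possible between single libraries. The median log2 difference of the 6 receptors was 0.07 in the sh1-labelled library and 0.01 in the sh2-labelled library, against 0.00 for all features in the sh1-labelled library.

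**Figure D3:**
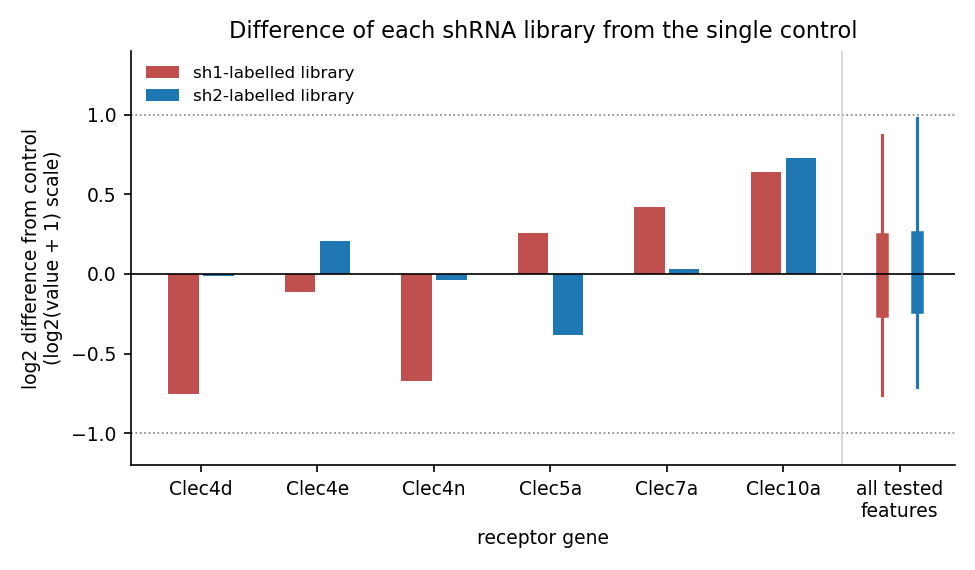
Log2 difference from the control (log2(value + 1) scale) of each receptor in the sh1-labelled and sh2-labelled libraries, as bars of 1 library each, with dotted lines at a 2-fold difference. At the right, the thick lines span the middle 50% and the thin lines the middle 90% of all 13877 tested features, and no receptor reaches 2-fold.

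For each receptor, the protein-coding gene with the most similar pair of log2 differences was sought among 10389 genes with a mean of at least 50. Likeness was the Euclidean distance over the 2 differences, so it rests on 3 libraries, and with so many genes close matches exist for any pattern. The nearest gene to Clec4d was Blvrb (767, 462 and 756 normalized counts, distance 0.019), and to Clec4n it was Cdca3 (930, 579 and 899, distance 0.014). Nearest to Clec4e was Hirip3 (1426, 1317 and 1654, distance 0.003), to Clec5a Gm4951 (759, 888 and 574, distance 0.037), and to Clec7a Hspa4l (4149, 5542 and 4248). Nearest to Clec10a was Pcnx (1023, 1576 and 1685, distance 0.024). The 3 nearest genes of each receptor all lay within a distance of 0.053.

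The genes through which these receptors signal were read next, from lists chosen with earlier results of these data known. The 3 partner chains lay close to the control, with log2 differences between -0.22 and 0.12. Fcer1g, the partner of Mincle, MCL and Dectin-2, had 17463 normalized counts with the control shRNA, 17436 in the sh1-labelled library and 15399 in the sh2-labelled library, a log2 difference over both of -0.09 (SE 0.14). The lowest adjusted p of the 3 chains in limma was 0.83, for Tyrobp. The sh1-labelled library, with its lower Clec4d and Clec4n, thus had nearly the control's value of Fcer1g.

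Of 20 genes of proximal signalling, 5 were higher and 10 lower in both libraries, against 34.9% and 35.2% of all features. None was 1.5-fold from the control in both, and none passed in limma (lowest adjusted p 0.72). The most abundant were the adaptor Lcp2 (31315, 25690 and 32974 normalized counts in the order control, sh1-labelled, sh2-labelled) and the Src-family kinase Lyn (29361, 29153 and 25664). Syk, named with its values known as the kinase common to these receptors, had 1547, 1939 and 2377. Card9, named likewise, had 1772, 1510 and 1525. The list's median log2 difference was -0.06 in the sh1-labelled library and -0.15 in the sh2-labelled library.

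Among 8 genes listed here as inhibitors of this signalling, 4 were higher and 3 lower in both libraries, against 34.9% and 35.2% of all features. None passed in limma (lowest adjusted p 0.45). Dok3, an adaptor that restrains signalling through immunoreceptor motifs, was the 1 gene of the list at least 1.5-fold from the control in both, with 4732 normalized counts in the control, 3013 in the sh1-labelled library and 2972 in the sh2-labelled library. Both GIV shRNA libraries lay below the control and close to each other, and 2.82% of all features were at least 1.5-fold lower in both. Of the 4 inhibitors higher in both, Cbl (4940, 7328 and 7133) and Inpp5d (3373, 4574 and 4754) lay furthest above the control. Both are named with their values known, and neither reached 1.5-fold in either library. Of 14 transcription factors downstream, 3 were higher and 6 lower in both, against the same 34.9% and 35.2% of all features. None passed in limma (lowest adjusted p 0.73). Nfkb1 had 31485, 33120 and 30446 normalized counts, Irf5 11970, 10640 and 9090, and Rel 9063, 11498 and 9916. Cebpb, which encodes a C/EBP factor known to drive Mincle and is named with its values known, had 2352, 1985 and 1477. Its lowest value was in the sh2-labelled library, where Clec4e was highest. Each value is that of 1 library, and a link between Cebpb and Clec4e was not tested.

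Cytokine and effector genes known to respond to these receptors, which LPS also induces, had mostly higher values. Of 13 tested (Cxcl1, at 0 or near 1 read, was not), 11 were higher in both libraries and 6 at least 1.5-fold, and 2 were lower in both. Of all features, 34.9% were higher in both, 5.09% at least 1.5-fold higher in both and 35.2% lower in both. The list's median log2 difference was 0.62 in the sh1-labelled library and 0.26 in the sh2-labelled library, and 0 genes passed in limma (lowest adjusted p 0.20). Csf2, encoding GM-CSF, had 166, 714 and 899 normalized counts, and Cxcl2, a neutrophil chemokine, had 11279, 25465 and 19893. Il6 and Il1b were the other 2 genes above a mean of 50 that were 1.5-fold higher in both, and Il12b and Il23a were the low ones. The 2 genes lower in both, named with their values known, were Il10 (8907, 6047 and 5109) and Ccl4 (71879, 67485 and 64110). Since several of these were already known from these data to be higher, the list is not independent evidence. The lists of partner chains, proximal signalling, inhibitors, transcription factors and co-receptors had medians between -0.22 and 0.15 on the log2 scale in either library. Medians in the sh1-labelled and sh2-labelled libraries were -0.28 and 0.19 for the 3 tested Dectin-2 cluster neighbours. They were -0.07 and 0.39 for the 4 tested Dectin-1 cluster neighbours, and -0.13 and -0.28 for the other genes with a C-type lectin name or domain.

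Among co-receptors and partners, 0 of 6 were higher and 4 lower in both libraries, against 34.9% and 35.2% of all features. None passed in limma (lowest adjusted p 0.73). Itgam and Itgb2, the chains of complement receptor 3, which also binds beta-glucan, had 19994, 18123 and 24136, and 17054, 20261 and 16656 normalized counts. Tlr2, which acts with Dectin-1, had 17602, 14099 and 16795, lowest in the sh1-labelled library.

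**Figure D4:**
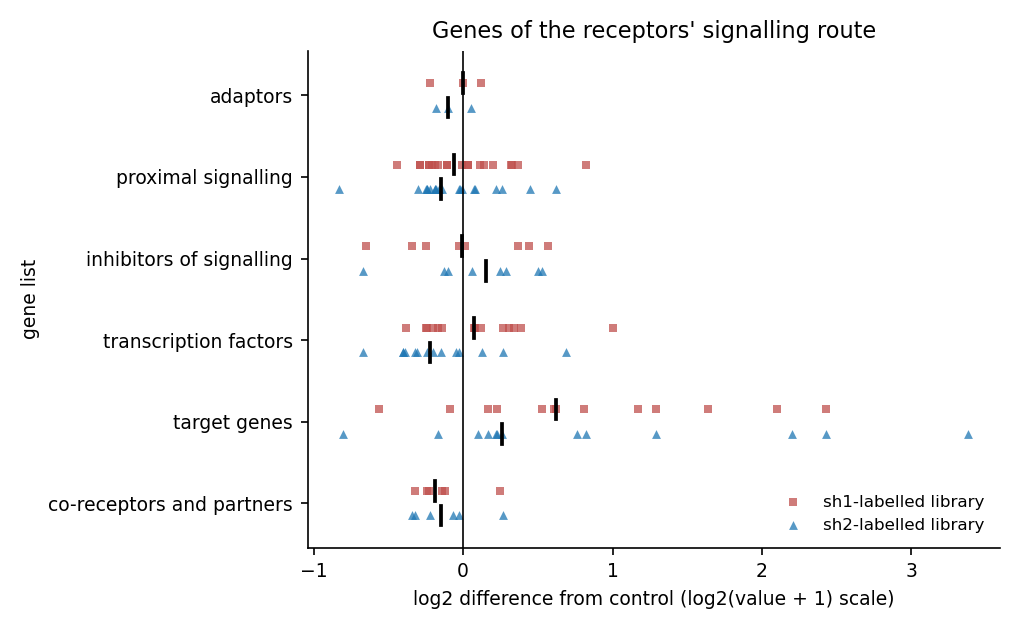
Log2 difference from the control (log2(value + 1) scale) of each tested gene in 6 lists around the receptors, with squares for the sh1-labelled library, triangles for the sh2-labelled library and short black bars for the list medians. Target genes spread to the right, with medians of 0.62 and 0.26, while the adaptors lie between -0.22 and 0.12.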

How the data were processed

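Stranded mRNA libraries were prepared from total RNA, per the labels' protocols. The deposited table holds 1 column per library, with normalized counts made by the authors, read here as a non-negative signal. The submitters' processing notes name Salmon, DESeq, DESeq2 and GRCm38, with no versions or roles. Annotation release and alignment settings are not given in the sources used here. Between 76.5% and 81.1% of low values lay within 0.05 of a whole multiple of the commonest low value, too few to recover reads, so no count model was used. Samples were grouped by their titles. The receptors and all gene lists were chosen with earlier results of these data known.

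Of 54331 identifiers, 54097 had a name in GENCODE M21 (GRCm38), which also gave positions and transcript lengths. The 13877 features with a mean of at least 10 were put on the log2(value + 1) scale, which understates changes of low genes, and fitted over the whole table with limma 3.58.1 in R 4.3.3 (eBayes with a variance trend, two-sided, Benjamini-Hochberg adjustment), after tests on simulated data. The lone control is assumed to vary like the 2 GIV shRNA libraries. The SEs and p-values rest on the spread between those 2 libraries over all tested features. For each gene, eBayes draws the variance towards a trend over these features, so an SE is not that gene's own spread. The spread between the 2 libraries may be technical, and it also holds any difference between the 2 shRNAs (Ccdc88a 1734 with the first and 2561 with the second). Single libraries were compared by fold alone. Genes named beyond the 6 receptors were all adaptors and cluster neighbours. From the other lists, genes with a mean of at least 50 that were 1.5-fold from the control in both libraries were named, or else the 3 most abundant. Exceptions are marked in the text, and a gene that the rule selects is not reported here. Promoter sequences are from RefSeq (GRCm38.p6). Alternatives covered the pseudocount, the filter, 4 scalings, the variance trend, the fold and leaving out each GIV shRNA library.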

Additional observations from a re-analysis of the deposited data

How the results depend on the processing

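No receptor passed in limma under any alternative that gave a test, with adjusted p from 0.51 to 0.81 for Clec10a, 0.77 to 0.91 for Clec4d, 0.77 to 0.95 for Clec4n, 0.77 to 0.94 for Clec7a, 0.93 to 0.97 for Clec4e and 0.96 to 0.98 for Clec5a. Clec10a kept its sign in both libraries under all 9 settings of pseudocount, filter and scaling, between 0.61 and 0.68 (log2) in the sh1-labelled library and 0.64 and 0.78 in the sh2-labelled library. Clec4d in the sh1-labelled library ranged from -0.78 to -0.71. The mean difference of Clec4e turned to -0.08 with the GC and length trend removed. Without a GIV shRNA library the difference is that of the other alone and has no test: Clec4e ran from -0.11 to 0.21 and Clec5a from -0.38 to 0.26, with a turn of sign in both when the sh2-labelled library was left out. The cause was not tested.

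The count of receptors lower in both libraries went from 2 to 0 with equal totals and with equal upper quartiles, and to 1 under quantile normalization, where the count higher in both also became 1. The features past an adjusted p of 0.05 in limma numbered 0, and 1 with a mean of at least 50, equal totals, equal upper quartiles or the GC and length trend removed. That feature was each time Gm10443, a processed pseudogene listed at 0 in the control, named after its value was seen. Features at least 2-fold from the control numbered 960 and 1016 for shRNA 1 and shRNA 2, 5419 and 4344 without a filter on low values, where features near 1 read enter, and 382 and 424 at a mean of at least 50. At 1.5-fold they numbered 2314 and 2384, and at 4-fold 265 and 292. Per kilobase of all merged exons, Clec4d stood at 7525 and Clec10a at 18.8 in the control.

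No paired analysis was possible because there is a single control library. Depth limits Clec4n and Clec10a most, and 1 control library limits every comparison.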

Other observations

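Beyond the 6 receptors, 56 other genes with a C-type lectin name or domain, or a place beside the receptors' clusters, were read. Their lists were chosen with earlier results of these data known. Of these, 19 passed the filter on low values and 18 were listed at 0 in all 3 libraries. The most abundant of the Dectin-1 cluster was Clec12a, an inhibitory receptor for uric acid crystals, with 8544 normalized counts in the control, 8292 in the sh1-labelled library and 7253 in the sh2-labelled library. Clec2d, a ligand of an NK-cell receptor, had 2507, 2356 and 1987. Olr1, the oxidised LDL receptor of the same cluster, had 165, 113 and 333, on opposite sides of the control, and Clec1b, a receptor for podoplanin, had 17.9, 20.3 and 57.6. Clec9a had 6.03, 15.4 and 1.03, and Clec1a was near 1 read or none.

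Among 12 tested genes of the other lectin-domain list, 1 was higher and 7 lower in both libraries, against 34.9% and 35.2% of all features. The list had a median log2 difference of -0.13 in the sh1-labelled library and -0.28 in the sh2-labelled library, and limma gave a lowest adjusted p of 0.64. The gene higher in both was Cd69, an early activation marker of leukocytes, with 371, 591 and 735 normalized counts. Its log2 difference over both libraries was 0.83 (SE 0.23) and both libraries lay at least 1.5-fold above the control.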
